A study of Rattus norvegicus with 21 samples.

Results

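Of 30404 Ensembl rat transcripts measured, 26 formed a set by their levels in brain macrophages after experimental stroke. They were at most 1.5 times sham in macrophage libraries without a title prefix, called 24h here, and at least 3 times sham in those titled 7D. The set was chosen from the measured levels. Levels were CPM, the expected count of a transcript scaled to 1000000 expected counts per library, and the rule used group means of CPM plus 1. A transcript was kept where this value in the 7D macrophages was at least 8 and at least 3 times that of the 7D sham microglia. In addition the 24h macrophages had to be at most 1.5 times, and the 24h microglia under 3 times, the 24h sham microglia, and the 7D microglia above 0.5 times the 7D sham. The levels of these groups relative to their shams are therefore a description and no evidence for the pattern.

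The study sorted immune cells from the ipsilateral side of the brain of adult rats, strain given as Winstar, after middle cerebral artery occlusion (MCAO) or a sham operation. MCAO is a stroke model in which a filament blocks the artery, here for 90 min, and is then withdrawn so that blood returns; in sham animals the carotid artery was exposed and its external branch tied. Microglia, the resident macrophages of the brain, were gated as CD11b+ with low CD45, and blood-derived macrophages as CD11b+ with high CD45. Sham brains gave microglia only, so a contrast of macrophages with sham joins cell type and injury. One set of libraries, called 24h here, held 3 each of sham microglia, MCAO microglia and MCAO macrophages, and the set with the title prefix 7D held 4 of each. Replicates are called biological in the labels, which tie no library to an animal and do not say whether animals were pooled, so p-values measure the spread between libraries only.

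The labels leave the 7D macrophages uncertain. All 12 libraries titled 7D carry a treatment field of 24 h, and the 4 titled as macrophages carry the source name and the low-CD45 gate of microglia. In the 24h set, microglia replicate 3 and macrophage replicate 3 carry each other's gate. The sham treatment field names a PBS injection. Groups follow the titles, and 7D is used as a name of the set. Set and time go together, so levels of both sets cannot be told apart from differences between the sets themselves. The summed expected counts of a library ranged from 6923630 to 9668961 at 24h, and from 11115359 to 15401910 for the 7D titles. Markers of the sorted cells, or of other cells in the gates, were not checked, because the files pair no gene name with a transcript identifier and a RefSeq listing of 47357 rat genes held 0 of the 26. For the same reason no gene role, sequence or position is given.

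Monocytes enter the ischaemic brain within days and turn into macrophages that clear debris, while resident microglia leave their resting state. Both cells come to share many transcripts in injured tissue, and sorting by CD45 is the usual way of separating them because microglia carry less of it. In a bulk library a level can move because a transcript changes in each cell or because the mix of cells changes, and fewer cells of a type and less RNA per cell cannot be told apart.

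Most of the 26 transcripts also had a higher mean in the 7D microglia than in the 7D sham. In the 7D microglia, 20 of the 26 were at least 2 times the 7D sham mean and 15 were at least 3 times it, while 6 were under 2 times. Of all 9290 transcripts that reached the same level in 7D macrophages, 6.81% were at least 2 times and 3.16% at least 3 times sham in microglia. The median ratio over the 26 was 3.21 in microglia (0.917 to 82.3) and 3.99 in macrophages (3.11 to 65.9), against medians of 0.996 and 0.966 over the 9290. By group means 21 were higher in 7D macrophages than in 7D microglia and 5 were lower. In 6 of the 26 macrophages were at least 2 times microglia, where 2.97% of the 9290 were. The median ratio of macrophages to microglia was 1.31 over the 26 and 0.965 over the 9290. High macrophage means were a condition of the rule, so the choice favours this direction and the counts are a description. The rule also chose 7D sham means that were low beside the macrophages. This favours high microglial ratios to the same sham, so those counts are a description too.

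**Figure D1:**
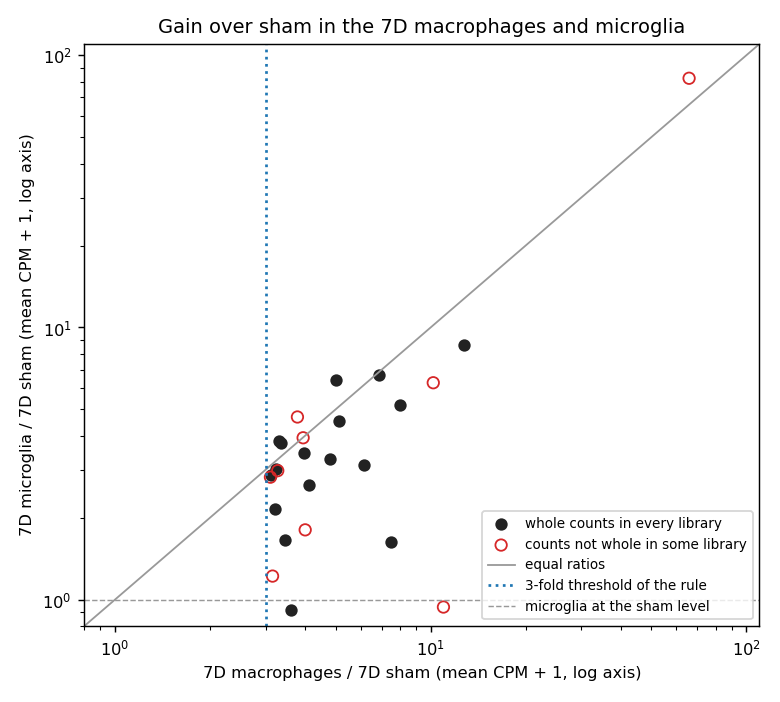
Ratio of the 7D macrophage mean to the 7D sham mean (x) and of the 7D microglia mean to the same sham mean (y) for each of the 26 transcripts, means of CPM plus 1, log axes. Filled points are the 17 transcripts with whole expected counts in every library and open points the 9 others; 20 points lie at or above a microglial ratio of 2, and both axes share the 7D sham libraries.

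The per-library medians over the set are a description too, since the rule chose the transcripts on the group means of these libraries. The median CPM of the 26 transcripts was 2.22 to 5.85 in the 4 libraries of 7D sham, 11.3 to 19.0 in 7D microglia and 18.5 to 27.5 in 7D macrophages. In the 24h set it was 2.11 to 3.83 in sham, 4.27 to 5.85 in microglia and 1.50 to 4.01 in macrophages. Every 7D MCAO library, titled as microglia or as macrophages, thus lay above every other library, and these 2 groups overlapped only between 18.5 and 19.0 CPM.

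**Figure D2:**
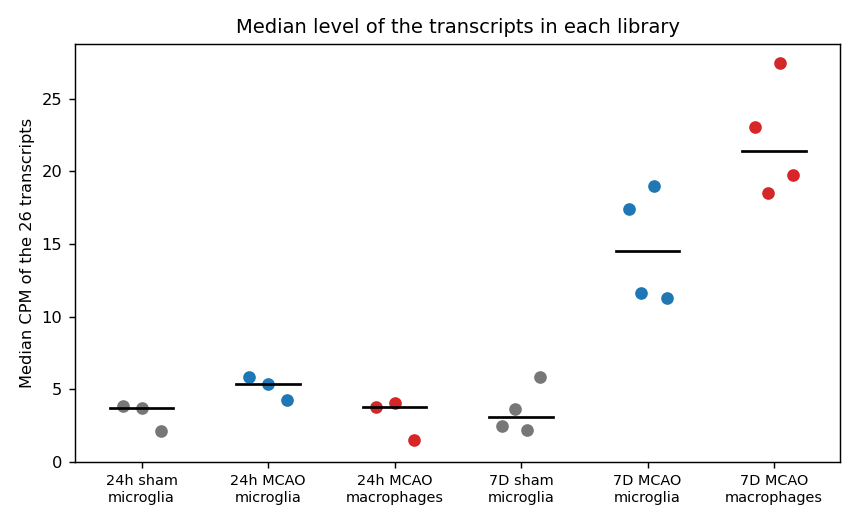
Median CPM of the 26 transcripts in each of the 21 libraries (points), with the median of each group (line). The 7D MCAO libraries lie at 11.3 to 27.5 CPM and all other libraries at 1.50 to 5.85 CPM. The rule chose the transcripts on these libraries, so the pattern is a description.

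Calls were taken from a fit over all transcripts of a set (edgeR quasi-likelihood, Benjamini-Hochberg adjusted p under 0.05), and 25 of the 26 passed its filter on low counts in the 7D set. In 7D macrophages 21 of 25 were above sham, where 28.4% of all 13384 transcripts tested rose; the rule used this contrast, so nothing is read from it. In 7D microglia 18 of the 25 were called above sham, where 22.9% of all transcripts rose, and all 18 were among the 21 called in macrophages. The median log2 fold change of microglia against sham was 1.99 over the 25, and -0.03 over all transcripts. The rule bounded this contrast only from below, but it also chose transcripts that were low in the same sham libraries, so the count is a description. Both comparisons share their 4 sham libraries.

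The rule was applied again without 1 replicate number of all 3 groups of the 7D set. The libraries left out then gave ratios to each other that the repeated choice had not used. The choices in turn share 24h and other 7D libraries. Because the set was chosen with earlier results of these data known, the ratios are no independent test. Both ratios of a replicate number also share its 1 sham library. Without replicate 1, 28 transcripts were chosen, and in the libraries left out their median ratio of macrophages to sham was 4.13 and of microglia to sham 3.44. For replicate 2 the medians were 2.99 and 3.14 (29 chosen), for replicate 3 they were 4.03 and 3.32 (27 chosen), and for replicate 4 they were 2.42 and 2.05 (37 chosen). Over all transcripts with the same minimum level these medians lay between 0.940 and 1.06. The transcripts chosen were not all of the set, since 25 of 28, 23 of 29, 19 of 27 and 24 of 37 belonged to the 26. In the libraries left out, macrophages kept the 3-fold gain in 20 of 28, 14 of 29, 18 of 27 and 10 of 37 transcripts. Over all transcripts 5.52%, 5.55%, 6.03% and 5.06% did. Microglia were at least 2 times sham in 21, 20, 18 and 19 of them, where 8.15%, 8.22%, 8.14% and 7.64% of all were. The median ratio of macrophages to microglia in the libraries left out was 1.12, 1.00, 1.15 and 1.15. Replicate 4 gave the smallest median ratios to sham in both cells. Its sham library held the highest 7D sham level for 13 of the 26 transcripts. The share over all transcripts was not computed, and a link between the 2 observations was not tested.

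**Figure D3:**
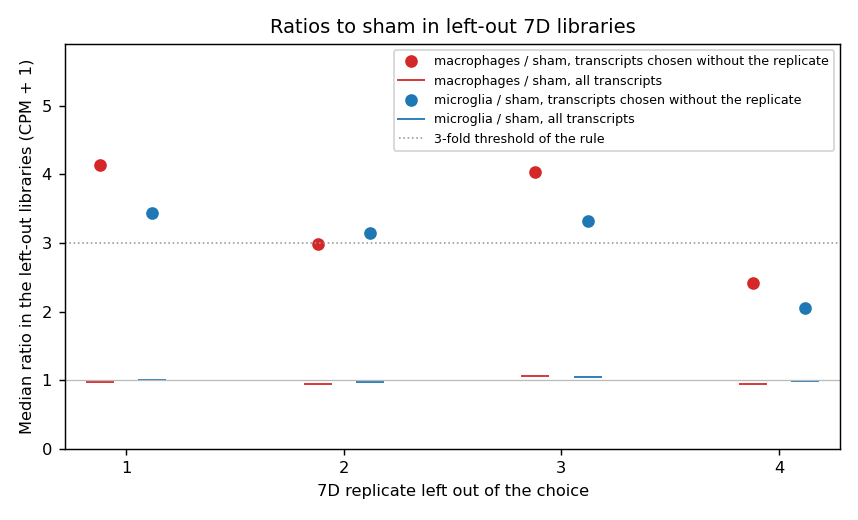
Median ratio to sham (CPM plus 1) in the 7D libraries left out of the repeated choice, for macrophages and microglia (points), with the medians over all transcripts (bars). Both cells lie at 2.05 to 4.13 and all transcripts at 0.940 to 1.06.

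The set fell into 2 kinds by how the reads were assigned, a property the rule did not use. For 17 transcripts the expected counts were whole in every library, as they are when no read is divided among transcripts. The other 9 had counts that were not whole, as did 25.3% of the 9290 transcripts of the same level. Of these 9, 7 were at 0 in at least 1 library, where 1.54% of the 9290, of whole counts or not, were. The rule chose 7D sham means that were low beside the macrophages. Their median was 3.74 CPM over the set and 37.9 CPM over the 9290. Low means favour libraries at 0, so the count of transcripts at 0 is a description. No transcript of the 17 was at 0 in any library. For the 9, a change can be a change in how RSEM, the quantifier, divided reads among similar transcripts, which was not tested. All 17 whole-count transcripts had every 7D macrophage library above every 7D sham library, against 3 of the other 9 and 20.0% of all transcripts, a count in a contrast that the rule used. In 13 of the 17 every 7D microglia library also lay above every sham library, against 2 of the 9 and 16.1% of all. Microglia were called above sham for 15 of the 17 and for 3 of the other 8 tested, where 22.9% of all transcripts were. Both microglial counts use the 7D sham libraries, which the rule chose to be low beside the macrophages, so they are a description. The transcripts of the set were of ordinary length, with a median of 2292 nt (573 to 5898) beside 2206.5 nt over the 9290.

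**Figure D4:**
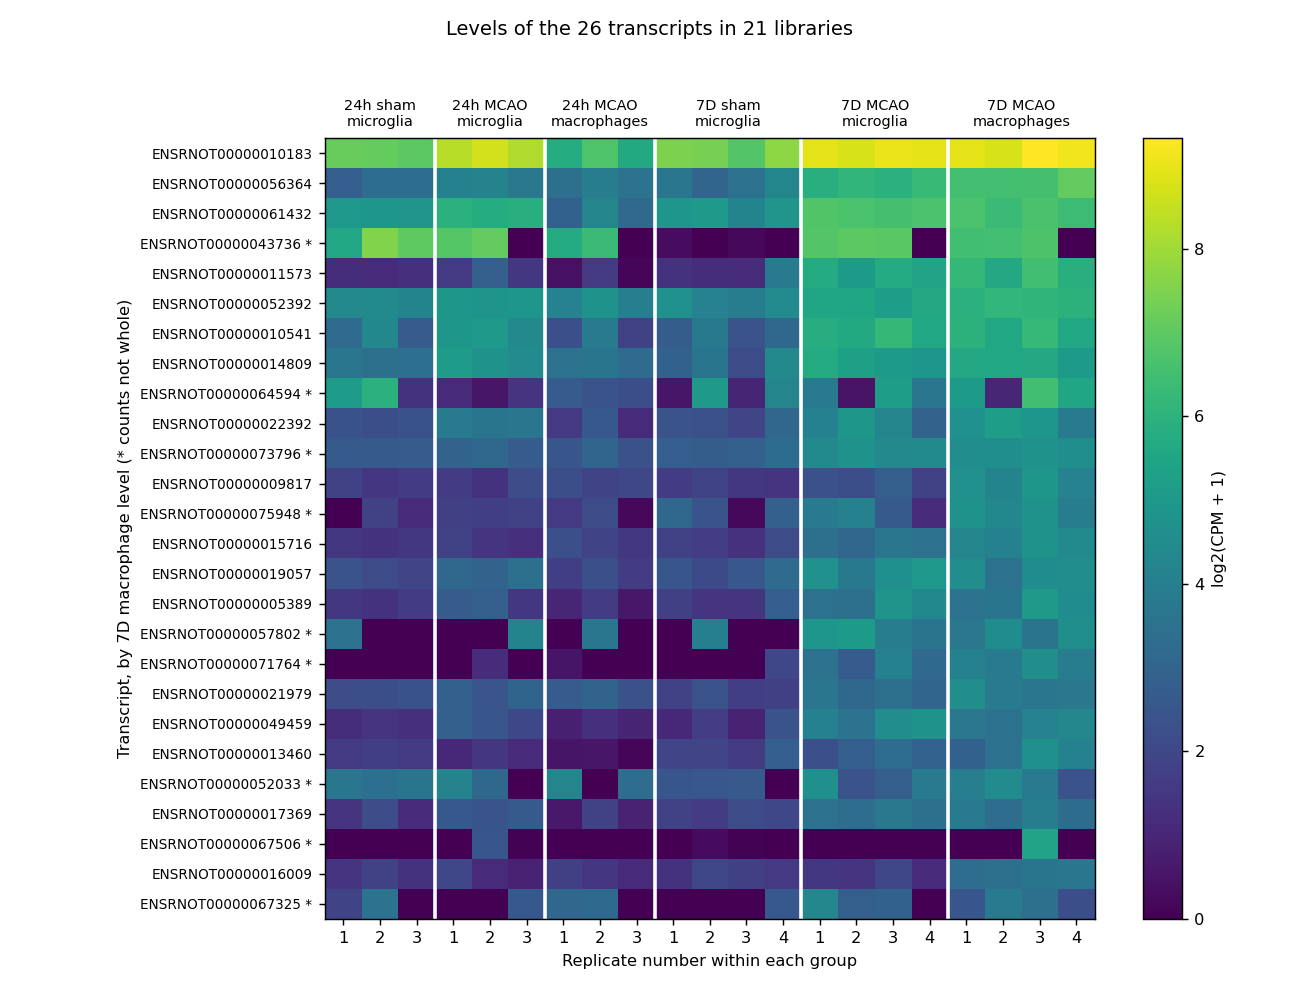
Level, as log2 of CPM plus 1, of each of the 26 transcripts (rows, ordered by 7D macrophage mean) in each library (columns, grouped). Rows marked with an asterisk hold the 9 transcripts with counts that are not whole, and the libraries at 0 are all in these rows.

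ENSRNOT00000010183, of 3144 nt, was the most abundant of the set also per length, at a mean of 237 TPM, a level corrected for transcript length, in 7D macrophages. Its levels were 484, 427, 638 and 559 CPM in 7D macrophages, 492, 430, 528 and 491 CPM in 7D microglia, and 177, 169, 113 and 214 CPM in 7D sham. Macrophages and microglia overlapped, and both lay above all sham libraries. At 24h it was at 318, 409 and 296 CPM in microglia, with sham at 142, 137 and 123 CPM and macrophages at 53.6, 106 and 49.8 CPM. It was thus already above sham in microglia at 24h, and lowest in the macrophages of that set, without overlap between the 3 groups.

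ENSRNOT00000011573 had the largest 7D ratios among the whole-count transcripts. It was at 72.7, 48.5, 88.3 and 56.8 CPM in 7D macrophages, at 52.0, 32.6, 52.7 and 42.0 CPM in 7D microglia, and at 1.56, 1.35, 1.28 and 13.0 CPM in 7D sham. The mean CPM plus 1 was 12.7 times sham in macrophages and 8.63 times in microglia. The log2 fold change of microglia against sham was 3.48, and 5.03 without sham replicate 4. At 24h it did not exceed 6.00 CPM in any library, and microglia were at 1.97, 6.00 and 1.84 CPM.

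ENSRNOT00000010541 and ENSRNOT00000061432 were at near-equal levels in both 7D cells. The first was at 45.6 to 73.9 CPM in 7D macrophages and 46.2 to 73.7 CPM in 7D microglia, with sham at 4.18 to 12.6 CPM. For the second, 7D microglia were at 93.7 to 110 CPM and 7D macrophages at 80.5 to 102 CPM, with sham at 17.4 to 31.7 CPM. In the 24h set ENSRNOT00000061432 was at 54.1 to 61.2 CPM in microglia, 28.0 to 30.2 CPM in sham and 6.41 to 17.8 CPM in macrophages, again in 3 separate ranges.

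A minority of the transcripts was called different between 7D macrophages and 7D microglia, though a larger share than over all transcripts. This contrast was not in the rule, but the rule chose high macrophage means, so the choice favours macrophages. Of the 25 tested, 4 were called higher in macrophages, where 6.51% of all transcripts were, and 0 were called lower, where 4.48% of all were. The call was also made for ENSRNOT00000013460 and ENSRNOT00000056364 when the replicate number of the titles was fitted as a block (6 in all). With all 21 libraries in the fit, 7 were called. In 6 of the 26, all of whole counts, every macrophage library lay above every microglia library, where 9.47% of all transcripts showed this. The median log2 difference was 0.26 over the 25 and -0.02 over all. A transcript that was not called is not thereby shown to be equal in the 2 cells.

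ENSRNOT00000009817, of 1791 nt, was 1 of the pair with the largest difference between the 7D cells. It was at 25.4, 17.7, 29.3 and 16.6 CPM in 7D macrophages, at 4.03, 3.78, 6.00 and 2.51 CPM in 7D microglia, and at 2.06, 2.78, 1.88 and 1.71 CPM in 7D sham. Macrophages did not overlap with either other group, whereas 1 microglia library lay within the sham range. The log2 difference between macrophages and microglia was 2.49 ± 0.27 (SE, n = 4 each, edgeR adjusted p = 0.00015). Microglia had a log2 fold change over sham of 0.99, which was called by edgeR (adjusted p = 0.014) but not by limma-voom (0.90, adjusted p = 0.084; 0.0048 to 0.084 over 19 alternatives). All 24h libraries were at 1.55 to 3.70 CPM.

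ENSRNOT00000016009 was raised in the 7D macrophages, while the 7D microglia stayed near the sham range. Its levels were 9.11, 9.99, 11.4 and 11.8 CPM in 7D macrophages against 1.86, 1.66, 3 and 1.19 CPM in 7D microglia and 1.56, 2.92, 2.39 and 1.89 CPM in 7D sham. Microglia and sham overlapped, with a log2 difference of -0.15 ± 0.29 (SE, n = 4 each, edgeR adjusted p = 0.70), and all 4 macrophage libraries lay above both. The log2 difference from microglia was 2.50 ± 0.29 (SE, n = 4 each, edgeR adjusted p = 0.0002). Every library of the 24h set was at 0.857 to 3 CPM.

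The other pair called higher in 7D macrophages than in 7D microglia was above sham in both. ENSRNOT00000015716, of 5189 nt, was at 17.9, 16, 26 and 20.5 CPM in macrophages, at 9.76, 7.48, 11.6 and 10.0 CPM in microglia, and at 1.54 to 3.51 CPM in sham, so that the 3 groups did not overlap (log2 difference 1.09 ± 0.21, SE, n = 4 each, edgeR adjusted p = 0.0059). ENSRNOT00000052392 was at 60.2, 71.3, 66.8 and 63.0 CPM in macrophages, at 44.7, 43.4, 36.6 and 47.9 CPM in microglia, and at 14.3 to 25.4 CPM in sham (log2 difference 0.64 ± 0.14, SE, n = 4 each, edgeR adjusted p = 0.012, at most 0.075 over 19 alternatives). Its 3 groups did not overlap either, but its difference between the MCAO cells was the smallest of those called.

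**Figure D5:**
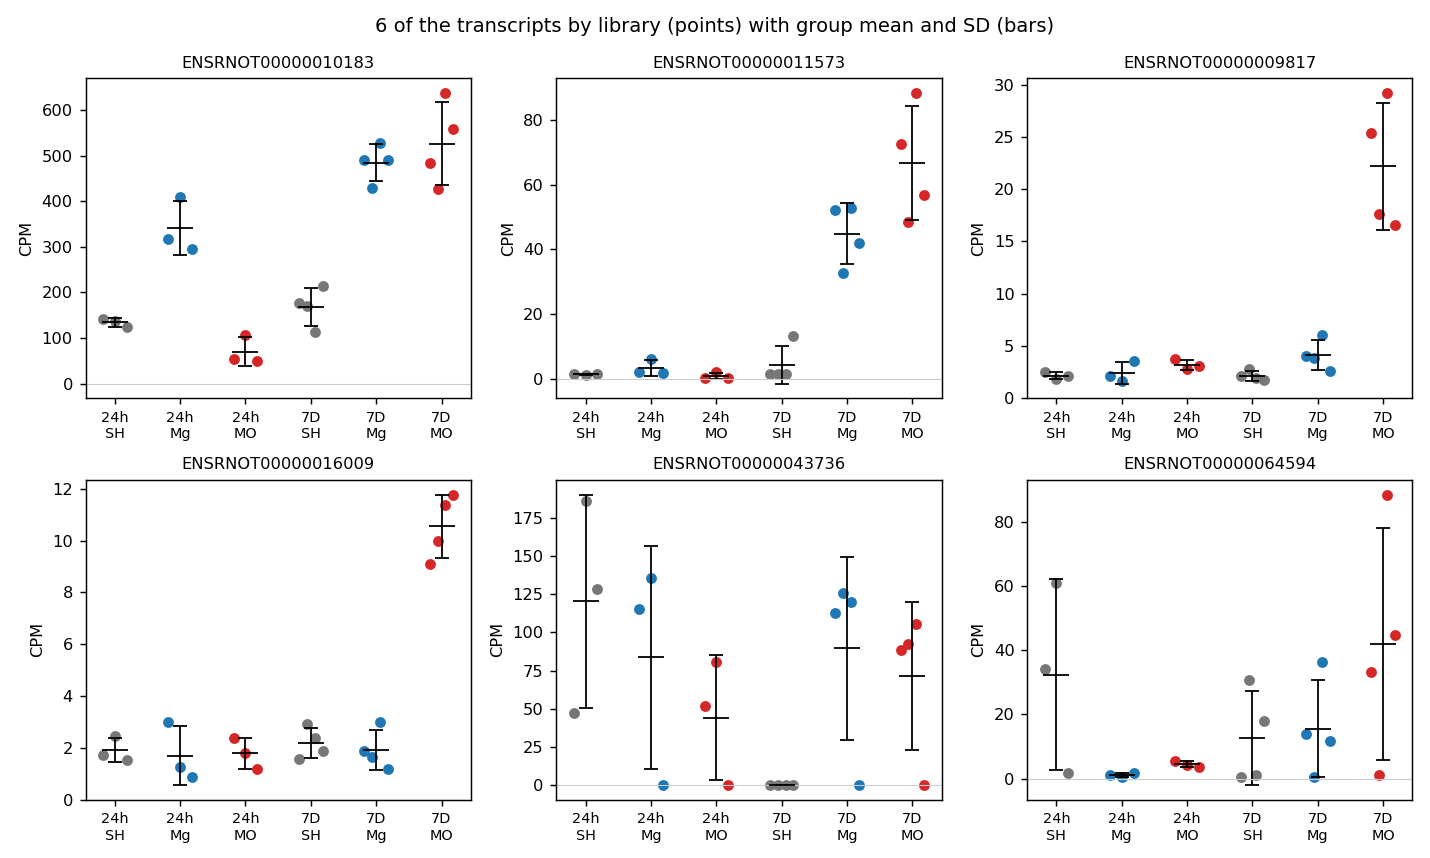
CPM of 6 of the transcripts in each library (points, coloured by cell), with the group mean and SD (black bars), for the 6 groups. ENSRNOT00000009817 and ENSRNOT00000016009 stand apart in the 7D macrophages (16.6 to 29.3 and 9.11 to 11.8 CPM), and the lower row includes 2 transcripts that were near 0 in some libraries of a group and high in others.

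The 24h levels were bounded by the rule, more tightly in macrophages than in microglia. Of 24 transcripts tested, 9 were called above sham in 24h microglia (37.5%), where 24.8% of all 13081 transcripts rose, and all 9 were also called in 7D microglia. The rule capped this contrast at 3 times sham. Macrophages at 24h fell below sham in 4 of the 24, where 33.5% of all transcripts fell, under a rule that barred a rise beyond 1.5 times. Between the 24h cells, 11 of 24 were lower in macrophages than in microglia (45.8%), where 24.0% of all were, and all 11 had whole counts. The rule let microglia reach 3 times sham and macrophages only 1.5 times, so the choice favours this direction and nothing is read from the count. ENSRNOT00000022392 was at 12.9, 11.3 and 11.6 CPM in 24h microglia, above 1.96, 4.99 and 1.18 CPM in macrophages and 4.04, 3.74 and 4.08 CPM in sham. Macrophage replicate 2 held the highest level of its group for 19 of the 26 transcripts, and the share over all transcripts was not computed. 1 transcript, ENSRNOT00000064594, was called below sham in 24h microglia, where 20.7% of all fell.

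ENSRNOT00000013460 was the whole-count transcript with the lowest 24h macrophage levels. It was at 0.435, 0.475 and 0.107 CPM in 24h macrophages, against 1.04, 1.76 and 1.22 CPM in the microglia and 2.02, 2.32 and 1.97 CPM in the sham libraries of that set. Expected counts this low rest on few reads, as 3 counts correspond to 0.310 to 0.433 CPM in these libraries. In the 7D set it was at 6.45, 10.5, 24.3 and 16 CPM in macrophages, 3.87, 5.81, 9 and 6.70 CPM in microglia and 2.88, 2.85, 2.13 and 5.85 CPM in sham. All 7D macrophage libraries lay above sham, and the microglia overlapped with both.

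In 15 of the 26 every 7D microglia library also lay above every 24h microglia library, where 10.3% of all transcripts showed this. The rule capped the 24h microglia and bounded the 7D microglia from below, and the comparison crosses the sets. Nothing is therefore read from this count. Levels of the 7D macrophages were also set beside the sham libraries of the other set. Mean CPM plus 1 of 7D macrophages was at least 3 times that of 24h sham for 22 of the 26, where 7.09% of the 9290 transcripts were, a comparison across sets whose groups both entered the rule, so it is a description and no added support. The exceptions were ENSRNOT00000043736, ENSRNOT00000064594, ENSRNOT00000052033 and ENSRNOT00000067325, named after their values were seen. In all 4 the 24h sham mean was at least 2 times the 7D sham mean, and all 4 had counts that were not whole. The reverse, a 7D sham mean at least 2 times the 24h one, held for 2 of the 26, where 1.6% of the 9290 showed it.

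ENSRNOT00000043736 had the largest ratio of the set to 7D sham, and it rests on the sham group. It was at 88.3, 92.3, 105 and 0 CPM in 7D macrophages, 113, 126, 120 and 0 CPM in 7D microglia, and 0.251, 0, 0.153 and 0 CPM in 7D sham. The libraries at 0 in the 2 MCAO groups were both replicate 4. In the 24h set it was at 47.2, 186 and 128 CPM in sham, 115, 136 and 0 CPM in microglia, and 51.9, 80.6 and 0 CPM in macrophages, so that here both libraries at 0 were replicate 3. Each group of MCAO cells thus held 1 library at 0, with the same number in both cells, and the others at 51.9 to 136 CPM. The mean of 24h sham was above that of every MCAO group. Its edgeR calls against 7D sham in both cells were lost with limma-voom (microglia adjusted p = 0.68, macrophages adjusted p = 0.67) and kept in the other 18 alternatives, down to 1.5e-06 and 1.1e-06. Whether the reads of the libraries at 0 went to a similar transcript was not tested.

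ENSRNOT00000064594 varied as much within groups as between them. It was at 33.1, 1.01, 88.4 and 44.7 CPM in 7D macrophages, 13.8, 0.424, 36.4 and 11.6 CPM in 7D microglia, and 0.463, 30.8, 0.962 and 18 CPM in 7D sham. Replicate 2 was the lowest and replicate 3 the highest library in both MCAO cells, and the ranges of all 3 groups overlapped. Its 24h levels were 34.2, 61.0 and 1.61 CPM in sham, 0.472 to 1.68 CPM in microglia and 3.69 to 5.57 CPM in macrophages. Its 7D log2 fold changes over sham, 1.83 ± 1.24 in macrophages and 0.37 ± 1.23 in microglia (SE, n = 4 each), passed in no fit.

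ENSRNOT00000067506, singled out after its values were seen, entered the set through 1 library. It was at 42.7 CPM in 7D macrophage replicate 3 and at 0 in the other 3 macrophage libraries and in all 4 microglia libraries of the 7D set, with 7D sham at 0 to 0.208 CPM. It was the only transcript of the 26 that did not pass the filter on low counts in the 7D set. ENSRNOT00000057802 and ENSRNOT00000067325 had sham means set by 1 library each, of 15.3 CPM (replicate 2) and 4.98 CPM (replicate 4), with the other 3 sham libraries at 0. In 7D macrophages they were at 11.1 to 23.9 and 3.77 to 13.1 CPM, and in 7D microglia at 10.9 to 32.9 and 0 to 18.8 CPM. ENSRNOT00000052033 was at 4.27 to 21.4 CPM in 7D macrophages, 4.24 to 24.5 CPM in 7D microglia and 0 to 5.08 CPM in 7D sham. These 3 and ENSRNOT00000064594 were the 4 tested transcripts not called in 7D macrophages against 7D sham.

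Of the transcripts with counts that were not whole, ENSRNOT00000073796 and ENSRNOT00000071764 were called above sham in both 7D cells, as was ENSRNOT00000043736 above. ENSRNOT00000073796, whose counts were not whole in 3 libraries, was at 22.8, 24.0, 25.8 and 24.0 CPM in 7D macrophages, 20.4, 26.2, 19.9 and 20.7 CPM in 7D microglia and 5.93, 5.77, 6.23 and 8.73 CPM in 7D sham. ENSRNOT00000071764 was at 16, 13.3, 23.5 and 14.2 CPM in 7D macrophages, 10.1, 5.54, 16.1 and 7.99 CPM in 7D microglia and 2.96 CPM in 1 of 4 sham libraries, the others being at 0. At 24h it was at 0 in all 3 sham libraries and did not exceed 1.26 CPM in any library. For both, all MCAO libraries of the 7D set lay above all sham libraries, and the MCAO cells overlapped. ENSRNOT00000075948, of 573 nt, was at 14.6 to 25.8 CPM in 7D macrophages, above sham at 0.149 to 7.58 CPM, while microglia at 1.25 to 16 CPM overlapped with both.

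ENSRNOT00000056364 was at 91.5 to 133 CPM in 7D macrophages, 56.8 to 77.2 CPM in 7D microglia and 7.26 to 18.5 CPM in 7D sham, in 3 separate ranges. The values of ENSRNOT00000049459 and ENSRNOT00000019057 were on average higher in microglia than in macrophages, at 18.9 ± 6.73 against 14.5 ± 4.11 CPM and 23.2 ± 7.53 against 19.8 ± 6.21 CPM (SD, n = 4 each), with overlapping libraries. ENSRNOT00000021979 was at 11.6 to 23.2 CPM in 7D macrophages, 7.33 to 11.5 CPM in 7D microglia and 2.30 to 4.27 CPM in 7D sham, without overlap. ENSRNOT00000014809 was at 32.7 to 48.8, 28.7 to 52.2 and 3.41 to 20 CPM in the same order, and ENSRNOT00000017369 at 8.89 to 13.9, 8.99 to 12.2 and 2.14 to 3.41 CPM. ENSRNOT00000005389 was at 10.4 to 32.2, 9.82 to 27.3 and 1.62 to 5.85 CPM, and ENSRNOT00000022392 at 13.2 to 36.6, 6.84 to 29.2 and 2.82 to 7.38 CPM. In the last of these the lowest microglia library lay within the sham range, and in all 4 the MCAO cells overlapped.

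The microglial change against sham was called more positive in the 7D set than in the 24h set for 3 of the 25 transcripts tested over all 21 libraries, where 0.47% of all were. Both contrasts were used by the rule, so nothing is read from this count. The edges of the rule were close to other transcripts. With the other 4 conditions met, the nearest 7D macrophage ratio inside the 3-fold threshold was 3.11 and the nearest outside 2.99. For the level it was 8.86 inside and 6.74 outside, for the 24h macrophage ratio 1.38 inside and 1.52 outside, and for the 24h microglia ratio 2.61 inside and 3.23 outside. The 24h macrophage condition removed the most transcripts after the 3-fold one, since 134 met all but this condition. Leaving out single libraries, 23 to 35 transcripts were chosen.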

How the data were processed

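RNA of sorted rat brain cells was sequenced as polyadenylated, strand-specific libraries, per the labels' protocols. The authors deposited RSEM expected counts per transcript, with TPM beside them, per the file headers; bcl2fastq, TopHat2 and RSEM on build rn5 are named in the submitters' processing notes, and versions and annotation are not given in the sources used here. The last lines of each file, 2 rows named by gene symbol and displaced against the header, were not used. The transcript length, in nt, is another deposited column per the file headers. The members and all lists were chosen with earlier results of these data known; gene lists could not be applied without names.

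CPM were computed from expected counts over the 30404 transcripts (pandas 2.3.3). Rounded expected counts were tested with edgeR 4.0.16 in R 4.3.3 (TMM, filterByExpr at its count of 10 and total of 15, quasi-likelihood F-test, 1 term per group, Benjamini-Hochberg), within the 12 libraries of the 7D set or the 9 of the 24h set. SE was taken as |log2 fold change| over the root of F. DESeq2 1.42.0 and limma-voom (limma 3.58.1) were alternatives, and the fit was tested on simulated counts. Same-numbered microglia and macrophage libraries had correlated deviations from the mean of each group. For the 4 pairs of the 7D set r was 0.22 to 0.30 over 13384 transcripts. For the 3 pairs of the 24h set it was 0.14 to 0.18 over 13081. Differently numbered libraries of these cells had r of -0.23 to 0.065. Pairs with sham had r of -0.10 to 0.18 where same-numbered and -0.26 to 0.16 where not. Whether a title number marks libraries of the same animals was not tested. The main fits did not pair same-numbered libraries, so their SE and p-values leave this correlation out. The replicate block was an alternative. Identifiers named are, among transcripts with a 7D macrophage value of at least 16, the 2 with the highest and 2 with the lowest microglial ratio to sham (ENSRNOT00000043736, ENSRNOT00000011573, ENSRNOT00000064594 and ENSRNOT00000009817); all others were chosen after their values were seen. A count was called whole within 0.001. Non-overlap backgrounds used transcripts with a summed count of at least 10 in the 2 groups.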

Additional observations from a re-analysis of the deposited data

Results flagged for a closer look

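For several transcripts 1 library of a 7D group of 4 stood apart from the others. In 15 of 77 group values 1 library lay far from the other 3 relative to the range of the group. The cutoff is passed by about 1 in 20 groups of normally distributed values, whereas these CPM include libraries at 0. The share over all transcripts was not computed, so nothing about the set is read from the count. In 7D sham, replicate 4 was the high one for ENSRNOT00000011573 (13.0 CPM, others 1.28 to 1.56), ENSRNOT00000073796 (8.73 CPM, others 5.77 to 6.23), ENSRNOT00000071764 (2.96 CPM, others 0) and ENSRNOT00000067325 (4.98 CPM, others 0), and the low one for ENSRNOT00000052033 (0 CPM, others 4.68 to 5.08). Sham replicate 2 was high for ENSRNOT00000057802 (15.3 CPM, others 0) and ENSRNOT00000021979 (4.27 CPM, others 2.30 to 2.47).

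In 7D macrophages, replicate 4 was high for ENSRNOT00000056364 (133 CPM, others 91.5 to 93.3) and low for ENSRNOT00000014809 (32.7 CPM, others 46.9 to 48.8) and ENSRNOT00000043736 (0 CPM, others 88.3 to 105). Replicate 1 was high for ENSRNOT00000021979 (23.2 CPM, others 11.6 to 12.8), replicate 2 low for ENSRNOT00000019057 (10.5 CPM, others 22.3 to 23.4), and replicate 3 high for ENSRNOT00000067506 (42.7 CPM, others 0). In 7D microglia, replicate 4 was low for ENSRNOT00000043736 (0 CPM, others 113 to 126) and replicate 2 high for ENSRNOT00000073796 (26.2 CPM, others 19.9 to 20.7).

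The microglial change against sham was more positive in the 7D set than in the 24h set for 3 of 25 transcripts (0.47% of all 14252 in this direction, edgeR interaction on all 21 libraries, contrasts that the rule used): the difference in log2 fold change was 1.89 for ENSRNOT00000015716, 1.57 for ENSRNOT00000056364 and 1.36 for ENSRNOT00000073796. Chosen for its 7D level, the set favours this direction.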

How the results depend on the processing

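The rule chose 81 transcripts with a fold of 2 and 13 with a fold of 4; over the other settings of the rule it chose 18 to 38, among them 36 with TMM scaling (all 26 included) and 25 with TPM (13 of the 26). Without single libraries it chose 23 to 35, and without replicate 4 of every 7D group, an alternative added after the data were seen, 37 (24 of the 26). The number of the set called above 7D sham was 17 to 20 in microglia and 21 to 23 in macrophages over 19 alternatives; the replicate block gave 20 and 22. The number called higher in 7D macrophages than in microglia was 3 to 7, with 7 from the fit of all 21 libraries, 6 with the replicate block and 4 to 5 without single libraries. In 24h macrophages against sham edgeR called 0 higher (1 at an unadjusted p under 0.05, and 0 by DESeq2 and limma-voom), and 1 with the replicate block, 1 without the pair of libraries of contrary gate and 0 to 1 without single libraries, replicate 3 of the macrophages giving the 1. DESeq2 called 5 more positive microglial changes in the 7D set, and 2 to 4 were called without single libraries. The median log2 fold change of 7D microglia was 2.25 without replicate 4 of every 7D group and 1.95 to 2.12 without single libraries; the cause was not tested. For ENSRNOT00000064594 the microglial log2 change turned to -0.17 with the replicate block, -0.03 without sham replicate 1 and -0.45 to 1.34 without single libraries (lowest without microglia replicate 3), and for ENSRNOT00000043736 the macrophage to microglia difference turned to 0.14 without macrophage replicate 4 (-0.71 to 0.14 without single libraries), all uncalled. In the 7D set, 3 counts correspond to 0.195 to 0.270 CPM, which limits what a level near 0 shows; limits cover counting error only.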
